A study of Mus musculus with 32 samples.

Results

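Mum1l1 and Trap1a are protein-coding genes that lie next to each other on the mouse X chromosome, and their expression from the active X (Xa) and the inactive X (Xi) is described here in 12 groups of XEN cells. They were chosen by name, as 2 of the 1006 genes listed in 4 tables, because earlier results of these data showed both of them on Xi in some groups. The values below therefore describe the genes and test nothing.

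XEN cells are stem cells of the extraembryonic endoderm, here from a 129S1/SvImj X JF1/Ms cross, in which sequence differences between the parents separate Xa from Xi. All groups share this line and cross, and the labels give 32 RNA samples. WT had 3 samples, XistpA 4, XRR_KO 2 (1 from each of 2 clones) and XRRa_KO 3. XRRb_XaKO, XRRb_XiKO, XRRc_XaKO and XRRc_XiKO had 2 samples each. In the Rad21-degron line, 4 samples from 2 clones were treated with DMSO and 4 with dTAG, a small molecule that directs a tagged protein to degradation. In the Ctcf-degron line, 2 samples each received DMSO or dTAG for 48 h. The labels do not say what was altered in XistpA or the XRR lines, and the tables do not show how far Rad21 or Ctcf was depleted. Each group is 1 merged value per gene and allele, in FPKM (read fragments set relative to transcript length and library total), so there is no replicate spread, no SD and no p-value, and the depth is unknown. In bulk samples, a part of the cells expressing a gene from Xi and a low level in every cell cannot be told apart.

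One X chromosome of each female mouse cell is silenced under the control of the noncoding RNA Xist, and in the extraembryonic lineages of the mouse the silenced X is the paternal one. Some genes escape, and others stay silent only while the silencing machinery is intact. Mum1l1, now called Pwwp3b, encodes a protein with a PWWP domain, a fold that in other proteins binds methylated histones. Trap1a encodes P1A, a tumour rejection antigen first found on a mouse mastocytoma, which in healthy mice is known from testis and placenta.

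In the GENCODE M21 annotation both genes are transcribed from the plus strand. Mum1l1 has 7 coding transcripts of 4 to 7 exons, with all coding sequence in 1 exon, and overlaps no other annotated gene. Trap1a has 1 coding transcript of 3 exons and overlaps the noncoding gene C330013F16Rik (Platr21) on the minus strand. The libraries keep no strand, so reads from the overlap cannot be given to either gene by strand. C330013F16Rik was listed at no more than 0.199 FPKM on Xa and 0.0529 FPKM on Xi in any group. The part of C330013F16Rik in the Trap1a values was not tested. Neither gene had a near-identical copy among the annotated transcripts.

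The promoters are shown because the genes are neighbours with different Xi values. The letters are the 250 bases before each annotated start in RefSeq on GRCm38.p6, another build than that of the authors' files, with CG dinucleotides in capitals, the sites of DNA methylation in mammals. Mum1l1 has 2 starts, at the ends of chrX:139209794-139210043 and chrX:139216916-139217165, and Trap1a has 1, at the end of chrX:139333433-139333682, all on the plus strand.
Mum1l1 first start: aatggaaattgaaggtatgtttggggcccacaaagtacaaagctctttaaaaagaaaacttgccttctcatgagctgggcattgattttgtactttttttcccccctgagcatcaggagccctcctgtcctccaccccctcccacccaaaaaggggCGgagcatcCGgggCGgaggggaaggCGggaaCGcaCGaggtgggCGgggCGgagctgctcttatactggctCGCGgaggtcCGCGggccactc
Mum1l1 second start: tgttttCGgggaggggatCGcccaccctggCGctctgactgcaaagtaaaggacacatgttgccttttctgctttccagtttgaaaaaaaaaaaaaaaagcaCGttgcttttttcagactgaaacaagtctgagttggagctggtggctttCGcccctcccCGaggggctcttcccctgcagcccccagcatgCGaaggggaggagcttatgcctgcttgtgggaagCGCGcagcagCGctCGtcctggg
Trap1a start: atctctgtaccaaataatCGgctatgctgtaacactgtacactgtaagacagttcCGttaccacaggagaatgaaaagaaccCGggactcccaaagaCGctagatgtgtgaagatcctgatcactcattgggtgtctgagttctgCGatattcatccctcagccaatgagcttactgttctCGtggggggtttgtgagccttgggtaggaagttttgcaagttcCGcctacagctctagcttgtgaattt

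Counted over 300 bases, from 250 before to 50 after the start, the Mum1l1 promoters held 17 and 12 CG dinucleotides and the Trap1a promoter held 8. Of 1223 X-linked promoters in the reference, 22.7% had 17 or more, 32.9% had 12 or more and 47.3% had 8 or more, with a median of 7. GGAA, the core of ETS factor sites, occurred 4, 3 and 3 times over both strands, and the median over all 32851 promoters was 3. Neither TATAAA nor CCACNAGG, core letters of the CTCF motif, was found on either strand of these windows. They occur in 13.6% and 4.99% of all promoters.

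On Xa, Trap1a ranked between 19th and 34th among the tested genes of its table in the 12 groups, and Mum1l1 between 103rd and 212th. Genes were tested when Xa plus Xi averaged 1 FPKM or more over the columns of a table, and both genes passed in all 4 tables, through Xa alone. In the table of WT, Trap1a had 87.7 FPKM on Xa in WT, 114 in XistpA, 73.3 in XRR_KO and 87.8 in XRRa_KO. It ranked 23rd to 29th of 270 tested genes there. Mum1l1 had 11.1 FPKM on Xa in WT, 10.4 in XistpA, 8.68 in XRR_KO and 11.8 in XRRa_KO. Its rank was 113th to 125th of 270, against a median over tested genes of 8.02 FPKM in WT.

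The XRRb and XRRc table gave similar Xa levels. Trap1a had 104 FPKM in XRRb_XaKO, 109.9 in XRRb_XiKO, 95.8 in XRRc_XaKO and 99.8 in XRRc_XiKO. Mum1l1 had 13.9, 12.9, 11.4 and 11.02 FPKM in the same order. In the degron tables both genes were listed lower, but tables were made separately and their levels are not compared. Trap1a had 60.8 FPKM in Rad21_DMSO, 69.1 in Rad21_dTAG, 32.2 in Ctcf_DMSO and 42.8 in Ctcf_dTAG. Mum1l1 had 7.71, 2.81, 1.78 and 4.42 FPKM. It ranked 107th and 154th of 247 tested genes in the Rad21 groups and 212th and 170th of 277 in the Ctcf groups.

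On Xi, Mum1l1 was well above its other values in 3 groups, and Trap1a was listed above 0 in 1. Mum1l1 was at 0.034 FPKM on Xi in WT, 5.57 in XistpA, 5.49 in XRR_KO and 3.93 in XRRa_KO. It was at 0.0419 FPKM in XRRb_XaKO, 0.0942 in XRRb_XiKO and 0.109 in Rad21_DMSO, and listed at 0 in XRRc_XaKO, XRRc_XiKO, Rad21_dTAG, Ctcf_DMSO and Ctcf_dTAG. Within the table of WT, Mum1l1 on Xi was thus higher in XistpA, XRR_KO and XRRa_KO than in WT. In the other tables it was at no more than 0.109 FPKM. The gene was chosen with these values known. Trap1a was at 1.34 FPKM on Xi in XRR_KO and listed at 0 in the 11 other groups.

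**Figure D1:**
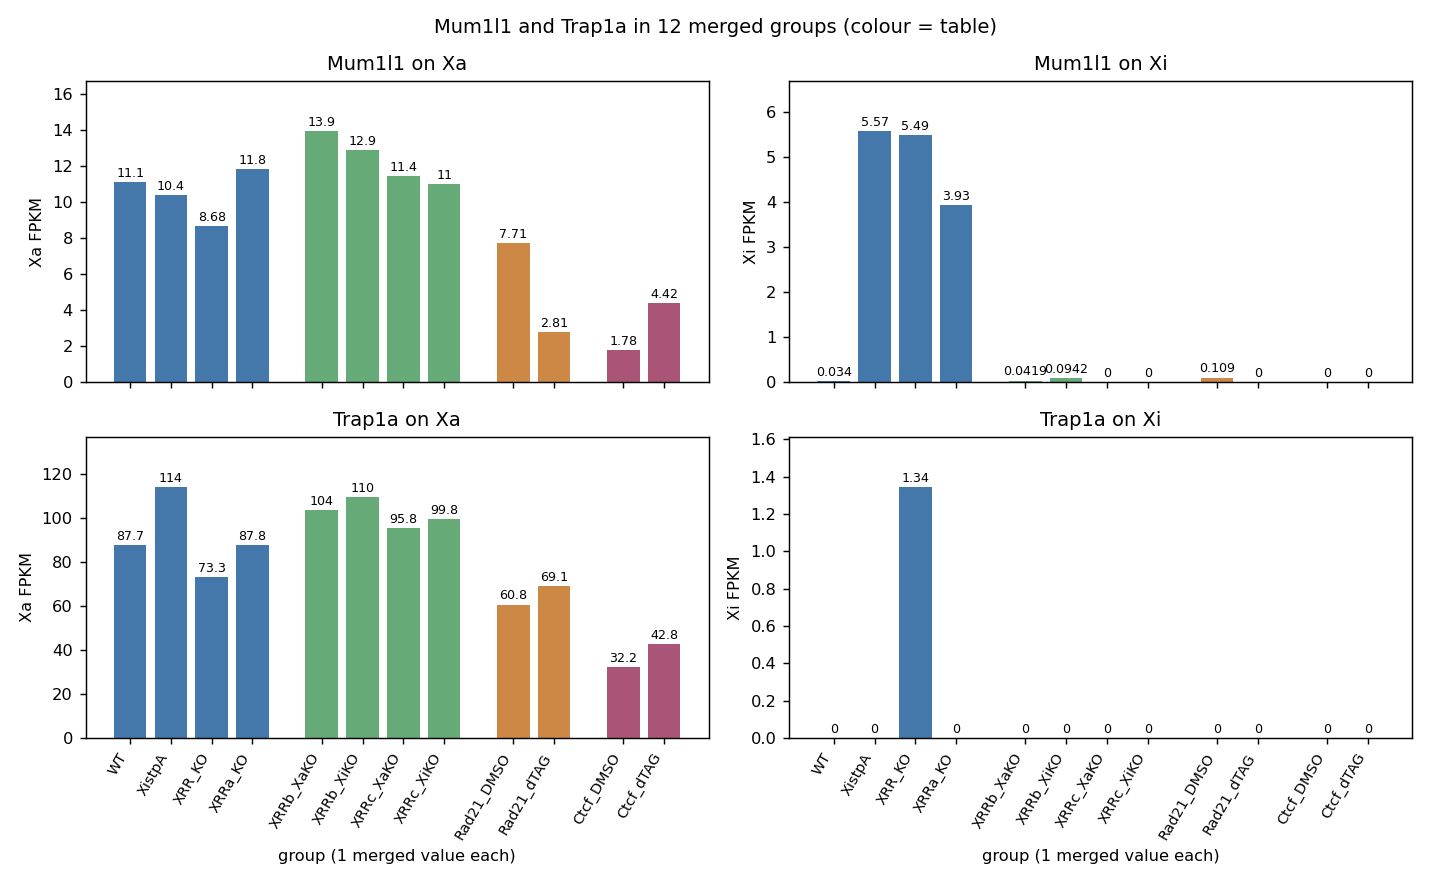
FPKM (vertical axes, linear from 0) of Mum1l1 (top) and Trap1a (bottom) on Xa (left) and Xi (right) in 12 groups, 1 merged value each, with bars coloured by table and no error available. Mum1l1 reached 3.93 to 5.57 FPKM on Xi in XistpA, XRR_KO and XRRa_KO and at most 0.109 elsewhere, while Trap1a was above 0 on Xi in XRR_KO alone (1.34 FPKM).

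The Xi share, the part of Xa plus Xi FPKM that came from Xi, can be set side by side across tables. For Mum1l1 it was 38.7% in XRR_KO, 34.9% in XistpA and 25.0% in XRRa_KO. The next values were 1.39% in Rad21_DMSO, 0.727% in XRRb_XiKO, 0.305% in WT and 0.300% in XRRb_XaKO, and the 5 others were 0. Without replicates, the order within the upper 3 and within the lower 9 groups cannot be set against a spread. For Trap1a the share was 1.80% in XRR_KO and 0 elsewhere.

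A share of 10% or more was reached by 12.2% of tested genes in WT, 20.4% in XistpA, 21.5% in XRR_KO and 15.9% in XRRa_KO. Mum1l1 was on the far side of that rule from WT in all 3 and ranked 35th, 36th and 32nd of 270 genes by share. Trap1a ranked 88th in XRR_KO. A listed 0 can be a low level or a failed estimate. In XistpA and XRRa_KO, Trap1a was listed at 0 on Xi beside 114 and 87.8 FPKM on Xa. The lowest Xi shares listed above 0 for any tested gene there were 0.0104% and 0.0206%, both of other genes. How low a share could be listed for Trap1a itself is not known.

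Changes were taken as differences of log2(FPKM + 0.5), so that changes of weakly expressed genes come out smaller than their ratio, and "rose" or "fell" stands for a size of at least 1. Against WT, Mum1l1 rose on Xi by 3.51 in XistpA, 3.49 in XRR_KO and 3.05 in XRRa_KO. These were the 10th, 9th and 4th highest of 270 changes. Trap1a rose on Xi by 1.88 in XRR_KO, the 25th highest, and did not move from 0 in XistpA and XRRa_KO. Of all tested genes 12.2% rose on Xi in XistpA, 15.9% in XRR_KO and 5.93% in XRRa_KO. Since these contrasts were among those that led to the choice of the genes, nothing is read from that difference. The 3 comparisons also share the WT column.

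Xa levels of both genes stayed within the size rule in these comparisons. The Xa change of Mum1l1 was -0.10 in XistpA, -0.34 in XRR_KO and 0.08 in XRRa_KO, beside medians over tested genes of -0.02, -0.19 and 0.02. That of Trap1a was 0.38, -0.26 and 0.00. With Xi added, Mum1l1 totalled 11.2 FPKM in WT, 15.9 in XistpA, 14.2 in XRR_KO and 15.7 in XRRa_KO, ratios to WT of 1.43, 1.27 and 1.41. In XistpA and XRR_KO the total was higher although Xa was lower, and Trap1a expression stayed almost all Xa.

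Xist, which marks the state of Xi, had 15.5 FPKM on Xi in WT, 7.86 in XRRa_KO and 1.18 in XRR_KO, and was listed at 0 in XistpA. In the same order of groups, Mum1l1 had 0.034, 3.93, 5.49 and 5.57 FPKM on Xi, and Xi shares of 0.305%, 25.0%, 38.7% and 34.9%. Without replicates, the order among XRRa_KO, XRR_KO and XistpA cannot be set against a spread. In the XRRb and XRRc table, whose levels are not set against those of WT, Xist on Xi lay between 6.72 and 10.9 FPKM. Mum1l1 on Xi was at no more than 0.0942 FPKM there. What part Xist plays in the Mum1l1 values was not tested.

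**Figure D2:**
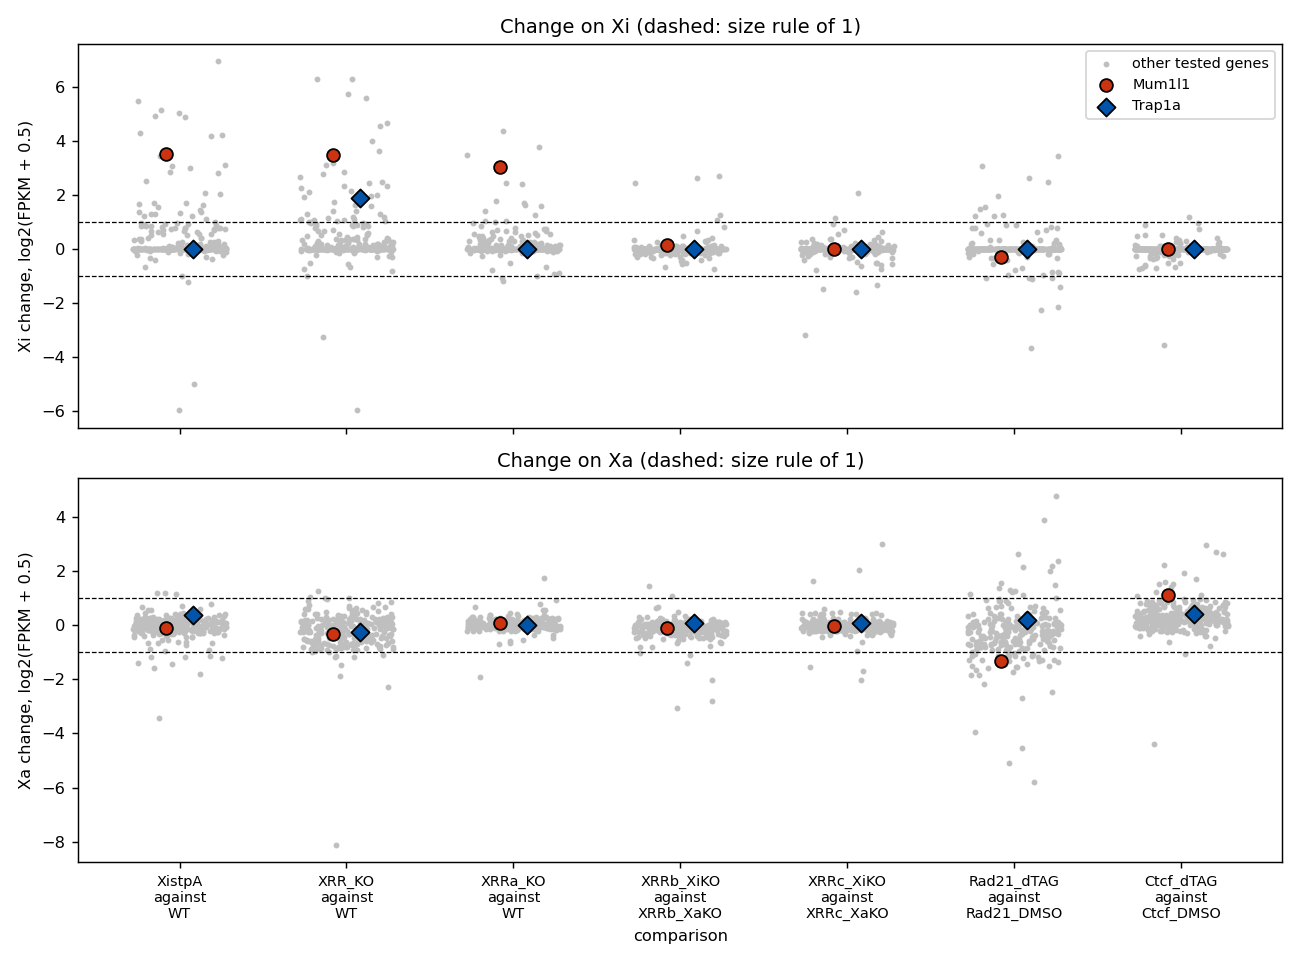
Change in log2(FPKM + 0.5) (vertical axes) on Xi (top) and Xa (bottom) in 7 comparisons (horizontal axis), for Mum1l1 (circles), Trap1a (diamonds) and all other tested genes (grey points, spread sideways), with the size rule of 1 dashed. On Xi, Mum1l1 lies at 3.05 to 3.51 in the 3 comparisons with WT, and Trap1a lies above the rule in XRR_KO alone (1.88).

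The lines named for a knockout on Xi or Xa showed neither gene past the size rule. In XRRb_XiKO against XRRb_XaKO, Mum1l1 changed by 0.13 on Xi and -0.11 on Xa, and Trap1a by 0 and 0.08. In XRRc_XiKO against XRRc_XaKO, both genes were at 0 on Xi in both groups, and their Xa changes were -0.05 for Mum1l1 and 0.06 for Trap1a.

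In the degron lines, Mum1l1 passed the size rule on Xa in columns as deposited. With dTAG in the Rad21-degron line, Mum1l1 fell on Xa from 7.71 to 2.81 FPKM, a change of -1.31, and Trap1a changed by 0.18. Of 247 tested genes, 15% fell on Xa in that comparison, the median Xa change was -0.26, and Mum1l1 had the 22nd lowest value. With columns scaled to equal median Xa FPKM, the Mum1l1 change was -0.94, within the size rule, and 26 genes rose and 19 fell, against 16 and 37 in columns as deposited and 22 and 26 when centred. On Xi, Mum1l1 went from 0.109 FPKM to a listed 0 (-0.28). Of X-linked genes known from extraembryonic tissue, Cited1 had 59.5 and 12.7 FPKM on Xa in DMSO and dTAG, and passed the size rule. Gpc3 had 24.4 and 12.3 FPKM and Amot 2.43 and 1.56, both within the rule. The part of these genes in the Mum1l1 value was not tested.

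With dTAG in the Ctcf-degron line, Mum1l1 rose on Xa from 1.78 to 4.42 FPKM, a change of 1.11, and Trap1a changed by 0.40. Of 277 tested genes, 5.42% rose on Xa there, the median Xa change was 0.23, and Mum1l1 had the 13th highest value. The Mum1l1 change was 0.88 with scaled or centred columns and 0.96 with a pseudocount of 1, each within the size rule. Both genes were listed at 0 on Xi with DMSO and with dTAG. On Xa in DMSO and dTAG, Cited1 had 60.3 and 102 FPKM, Amot 2.56 and 4.11 and Gpc3 18.1 and 17.1, and their part was again not tested. Of the changes of both genes, the smallest in size that passed the rule was this 1.11, and the largest that did not was the 0.40 of Trap1a.

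Between the genes, the Xa ratio was steady except in Rad21_dTAG and Ctcf_DMSO. Trap1a had 7.43 to 11.02 times the Xa FPKM of Mum1l1 in the 8 XistpA, XRR and WT groups and 7.89 times in Rad21_DMSO. The ratio was 24.6 in Rad21_dTAG, 18.1 in Ctcf_DMSO and 9.68 in Ctcf_dTAG. These ratios are set within columns and do not depend on scaling between them.

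Around the pair, few genes were expressed, and Xi expression was uneven. In the order of RefSeq genes, only C330013F16Rik is listed between Mum1l1 and Trap1a. Of the 5 nearest listed genes on either side, Rnf128, a ubiquitin ligase gene, was the only one to pass the filter in each of the 4 tables. Rnf128 was listed at 0 on Xi in WT, XistpA and XRRa_KO and at 0.372 FPKM in XRR_KO (0.80). By Xi share in XRR_KO, Rnf128 (9.90%) was above Trap1a (1.80%), the reverse of their order by Xi FPKM. Tbc1d8b, which did not pass the filter, had 0.300 FPKM on Xi and 0.446 on Xa in XRR_KO, a share of 40.2%. It was listed at 0 on Xi in WT and XRRa_KO and at 0.0267 FPKM in XistpA. On Xa, Rnf128 fell in XistpA, from 3.34 to 0.594 FPKM (-1.81).

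With 10 genes on either side, Rbm41, Morc4 and Fam199x also passed in the table of WT. Rbm41, which encodes an RNA-binding protein, rose on Xi from a listed 0 to 1.05 FPKM in XistpA (1.63) and 2.04 FPKM in XRR_KO (2.34), and was at 0.0246 FPKM in XRRa_KO. Its Xi level in XRR_KO was above its Xa level of 1.30 FPKM. Morc4 and Fam199x had 4.45 and 2.55 FPKM on Xa in WT and no more than 0.0100 FPKM on Xi in any of the 4 groups. Xi values at or near 0 and Xi values above 1 FPKM thus lay side by side.

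**Figure D3:**
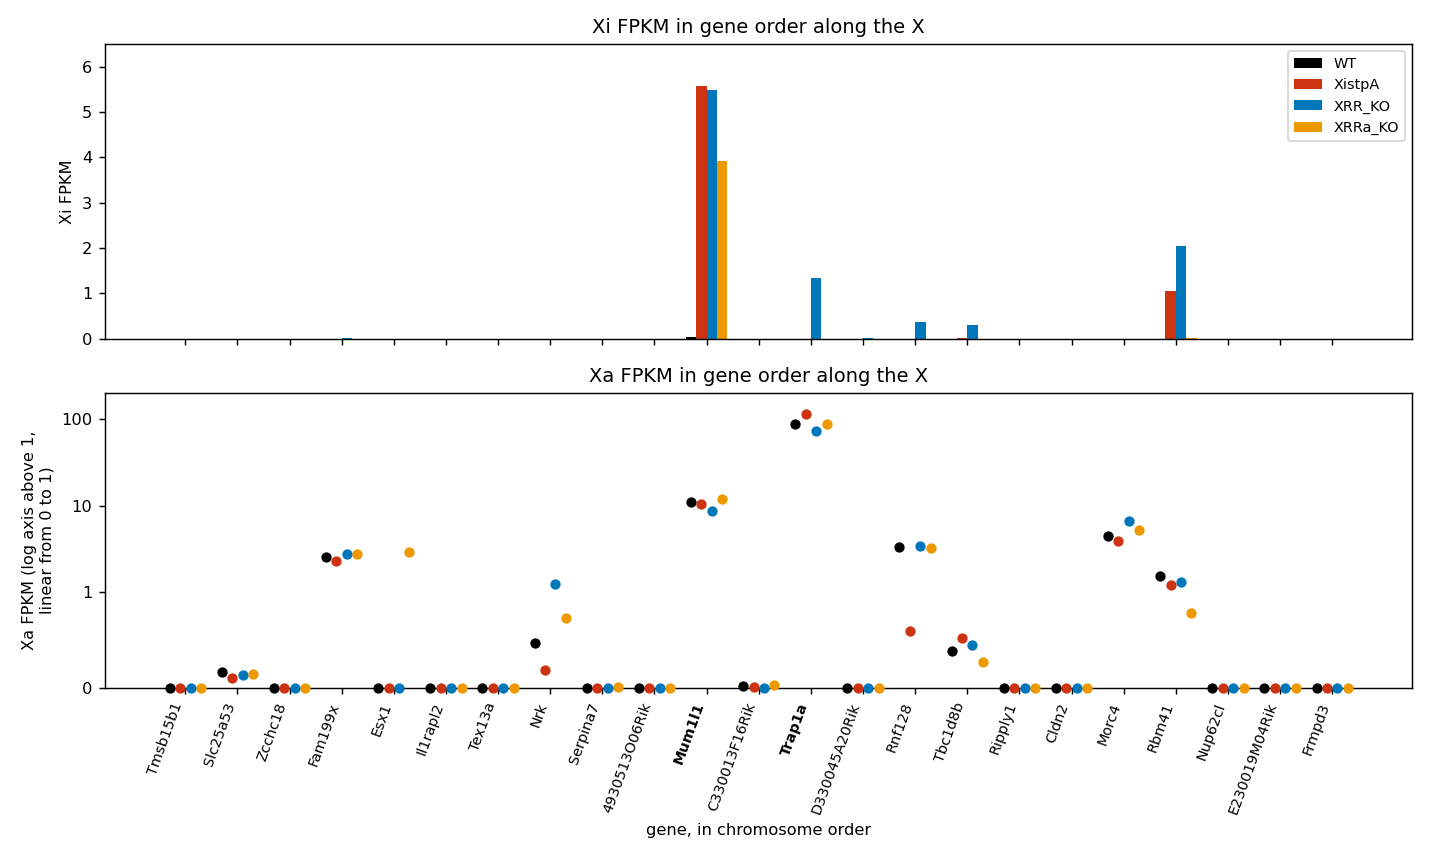
FPKM on Xi (top, bars from 0) and Xa (bottom, points on an axis that is linear from 0 to 1 and logarithmic above) of Mum1l1, Trap1a, the gene between them and the 10 nearest listed genes on either side, in chromosome order, in WT, XistpA, XRR_KO and XRRa_KO. Of the genes shown, Mum1l1, Trap1a and Rbm41 exceed 1 FPKM on Xi in any of the 4 groups, at up to 5.57, 1.34 and 2.04 FPKM.

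Genes with a like pattern were sought by Pearson's correlation of Xi share over the 12 groups, among 58 other genes tested in all 4 tables that reached 10% somewhere. The points share tables and depth, so these values are descriptions. Mum1l1 was most like the autophagy protease gene Atg4a (r = 0.97), the TNF receptor family gene Eda2r (0.96), the transcriptional coregulator gene Cited1 (0.95), the chromatin complex gene Morf4l2 (0.93) and Stard8 (0.90). In the same order, Spearman's correlation was 0.64, 0.45, 0.76, 0.82 and 0.71. Since the Mum1l1 share was at most 1.39% in 9 groups, its likeness rests on XistpA, XRR_KO and XRRa_KO. Those groups were among the ones that led to its choice, and the 10% rule lets in genes that are high there. Shares in XRR_KO were 40.5% for Atg4a, 45.3% for Eda2r and Cited1, 37.6% for Morf4l2 and 36.3% for Stard8. In XRRa_KO these 5 genes had 12.1%, 13.4%, 19.4%, 7.79% and 3.27%, all below the 25.0% of Mum1l1.

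Trap1a was most like Rp2h (0.99), the palmitoyltransferase gene Zdhhc9 (0.99), 2210013O21Rik (0.97), the lysosomal membrane gene Lamp2 (0.96) and the thymosin gene Tmsb15b2 (0.96). All 5 had their highest share in XRR_KO, at 24.9%, 24.1%, 13.2%, 13.5% and 29.1%, and 0 in WT. Since the Trap1a share is above 0 in 1 group, this likeness rests on XRR_KO alone. By position, Morf4l2 and Atg4a were 18 listed genes before and 20 after Mum1l1, the 2nd and 3rd nearest of the 58, where the median was 218 genes. Cited1, Stard8 and Eda2r were 178, 216 and 220 genes before Mum1l1, the 25th, 29th and 30th nearest. Of the genes most like Trap1a, Tmsb15b2 was 14 genes before it, the nearest of the 58, and 2210013O21Rik was 96 after it, the 15th nearest. Zdhhc9, Lamp2 and Rp2h were 540, 563 and 672 genes before Trap1a, beyond the median of 220. The 10 genes thus took in some of the nearest of the 58, Tmsb15b2, Morf4l2 and Atg4a, while the others lay 96 to 672 genes away.

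The genes named depended on the measure of likeness. Of the 5 for Mum1l1, Spearman's correlation kept 1 (Morf4l2) and the mean absolute difference of share kept 3. Of the 5 for Trap1a, they kept 4 and 2.

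**Figure D4:**
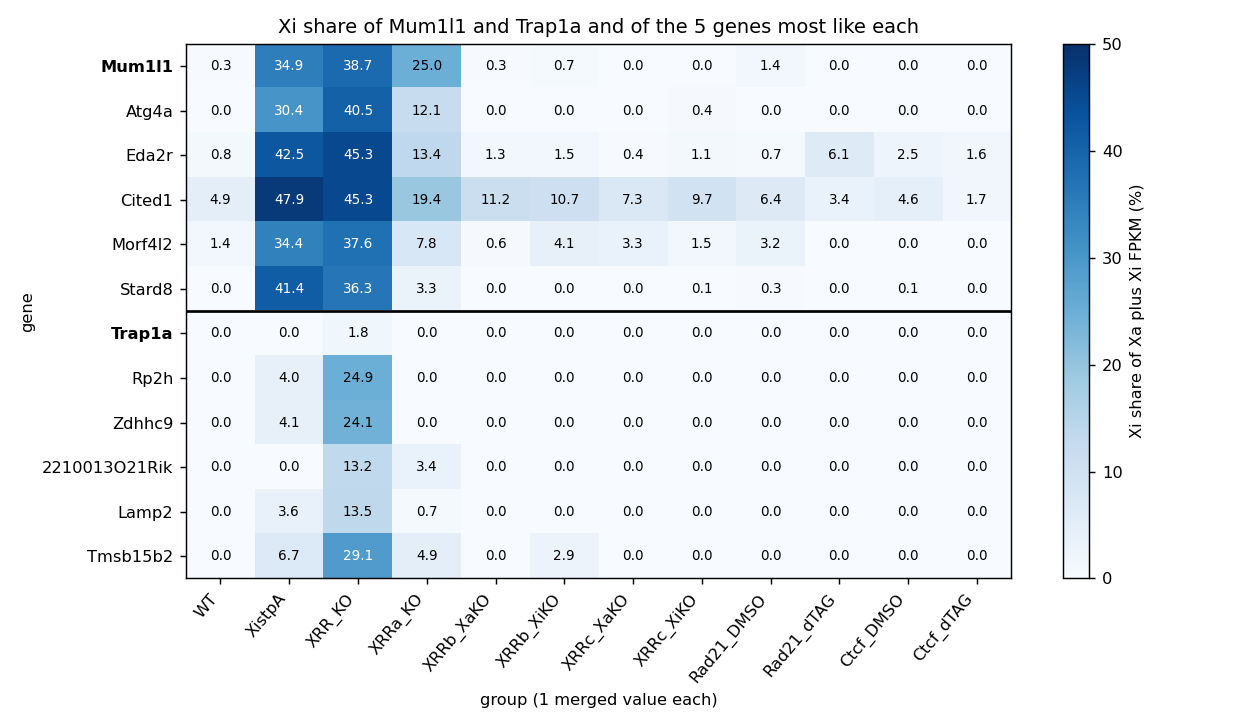
Xi share in percent (colour and printed value) of Mum1l1 and Trap1a and of the 5 genes most like each (rows) in 12 groups of 1 merged value (columns). The Mum1l1 rows are high in XistpA and XRR_KO and lower in XRRa_KO, where Mum1l1 has 25.0% against 3.27% to 19.4%, and the Trap1a rows are highest in XRR_KO.

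Genes of related kinds gave few members to compare. Of 95 listed genes of X-linked germline and tumour antigen families such as Mage, Rhox and Xlr, chosen by name and without Trap1a, 9 passed the filter in the table of WT. Names were matched by their first letters, so members such as Mageh1 were not each checked for germline or tumour expression. On Xi, Xlr rose in XistpA and XRR_KO, from a listed 0 to 3.004 and 2.03 FPKM (2.81 and 2.34), and 0 of 9 rose in XRRa_KO. These counts of 1, 1 and 0 of 9 stand beside 12.2%, 15.9% and 5.93% of all tested genes. The list's median Xi change was 0.07, 0 and 0, beside 0 over all tested genes in each. On Xa, Xlr rose and Xlr4a fell in XistpA (1.19 and -1.41), where 1.11% and 3.33% of tested genes did so, and Xlr3a and Xlr4a were listed at 0 in XRR_KO against 138 and 1.96 FPKM in WT. On Xa in XRR_KO, 3.7% of tested genes fell, with 3 genes up and 10 down as deposited, 6 and 7 at equal median Xa FPKM, and 7 and 4 when centred. In the Ctcf-degron line, 2 of 6 rose on Xa with dTAG, where 5.42% of all tested genes did, Xlr3c by 1.22 and Mageh1 from a listed 0 to 2.70 FPKM. None of the list's 8, 8 and 7 tested genes passed the size rule on either allele in XRRb, XRRc or the Rad21-degron line. Of all tested genes, 5 of 261 passed it on Xi and 8 on Xa in XRRb. In XRRc these were 6 and 6 of 261, and in the Rad21-degron line 18 and 53 of 247. The list's median Xa change was -0.11 in XistpA, -0.32 in XRR_KO, -0.06 in XRRa_KO and 0.70 in the Ctcf-degron line, beside -0.02, -0.19, 0.02 and 0.23 over all tested genes. Xlr genes are near copies of each other, so reads may be split between them.

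Of 14 listed X-linked readers and writers of histone marks, the group to which the PWWP fold of Mum1l1 belongs, 13 passed in the table of WT. Morf4l2 rose on Xi in XistpA, XRR_KO and XRRa_KO (4.88, 4.66 and 2.44) and Kdm5c in XistpA and XRR_KO (1.37 and 1.39). These counts of 2, 2 and 1 of 13 were near the 12.2%, 15.9% and 5.93% over all tested genes. The median Xi change of the list was 0 in all 3, as over all tested genes. On Xi, Morf4l2 rose in XRRb_XiKO (2.44) and fell in XRRc_XiKO and with dTAG in the Rad21-degron line (-1.35 and -3.67), where Mum1l1 stayed within the size rule. Of tested genes, 1.92% rose and 1.53% and 3.24% fell on Xi in these 3 comparisons. On Xi with Rad21 dTAG, 10 genes rose and 8 fell as deposited, 14 and 5 at equal median Xa FPKM, and 17 and 4 when centred. On Xa, 1 of 12 fell with dTAG in the Rad21-degron line (Hcfc1, -1.15), where 15% of all tested genes fell. With dTAG in the Ctcf-degron line 1 of 13 rose (Morf4l2, 1.51), where 5.42% of all tested genes rose.

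The tables hold X-linked genes only, so endoderm markers on other chromosomes could not be read. Of X-linked genes known from extraembryonic tissue, Gpc3 had 8.54 to 37.3 FPKM, Cited1 12.7 to 126 FPKM and Amot 1.56 to 4.11 FPKM on Xa over the 12 groups.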

How the data were processed

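Libraries were Smart-seq2, from polyadenylated RNA and without strand, per the labels' protocols. StringTie 2.1.1, HISAT2 2.2.0, Trim Galore 0.6.4 and mm9 are named in the submitters' processing notes. For the allele assignment, a method is not given in the sources used. The authors deposited 4 tables of FPKM values in 24 columns, 1 per group and allele, merged over samples per the file headers and names, so the planned limma test could not be run. Columns of the Ctcf table give no line and were assigned by elimination.

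Genes were tested at a mean Xa plus Xi of 1 FPKM or more (270, 261, 247 and 277 genes for the tables of WT, XRRb and XRRc, Rad21 and Ctcf). Changes used a pseudocount of 0.5 FPKM. FPKM carries no read total, so no interval is given. Named genes were Mum1l1, Trap1a, the 5 genes most like each, their tested neighbours, Xist, called members of 2 lists, and the X-linked extraembryonic genes. Rbm41, Morc4 and Fam199x came from the wider window, and Tbc1d8b is a near neighbour below the filter. The genes and lists were chosen with earlier results of these data known. Gene order and promoters came from RefSeq GRCm38.p6, which placed 999 of 1006 genes. Copies (95% identical, 50% of the length or more) were sought using minimap2 2.31. The calculation was tested on simulated data. Tables and plots were made with matplotlib 3.10.9, pandas 2.3.3 and numpy 2.4.6 in Python 3.11.15.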

Additional observations from a re-analysis of the deposited data

Results flagged for a closer look

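On Xa, Mum1l1 moved in opposite directions with dTAG in the degron lines, by -1.31 in the Rad21-degron line and by 1.11 in the Ctcf-degron line. At equal median Xa FPKM the changes were -0.94 and 0.88, both within the size rule. In the Ctcf-degron line, Trap1a had 18.1 times the Xa FPKM of Mum1l1 with DMSO and 9.68 times with dTAG. The listed treatment time of 48 h covers the Ctcf-degron line only. The difference between the lines was not tested, because each group is 1 merged value, and the lines stand in separate tables.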

How the results depend on the processing

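No paired analysis was possible because the columns are merged over samples, and for the same reason no replicate could be left out. Of the changes of Mum1l1 or Trap1a under 4 alternatives, 107 kept their side of the size rule, 4 no longer passed it, 1 newly passed it and 0 called changes turned. The 107 include changes between groups that were both listed at 0, which pseudocounts and scaling cannot move. These were Trap1a on Xi in every comparison but XRR_KO against WT, and Mum1l1 on Xi in XRRc and the Ctcf-degron line. Among changes near 0, the sign turned for Mum1l1 on Xa at equal median Xa FPKM, to 0.03 in XRRb and 0.02 in XRRc, and for Trap1a on Xa in XRRa_KO, to -0.04 at equal median Xa FPKM and -0.02 when centred. The Xi rises of both genes held in each alternative, with Mum1l1 at 2.67 to 5.40 in XistpA, 2.65 to 5.38 in XRR_KO and 2.25 to 4.91 in XRRa_KO, and Trap1a at 1.23 to 3.85 in XRR_KO. The exceptions were all Mum1l1. Its Xa fall in the Rad21-degron line was -0.94 at equal median Xa FPKM, its Xa rise in the Ctcf-degron line was 0.96 with a pseudocount of 1 and 0.88 with scaled or centred columns, and its Xi change in the Rad21-degron line was -1.06 with a pseudocount of 0.1. With 0.5 FPKM added to each allele, its Xi share was 13.1% in Rad21_dTAG and 18.0% in Ctcf_DMSO, where the listed Xi value is 0 and the share comes from the added amount.

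Counts of all changed genes depended on the settings. With a pseudocount of 0.1, Xi counts were 64 in XistpA (37 as reported), 75 in XRR_KO (46), 39 in XRRa_KO (19), 16 in XRRb (5), 19 in XRRc (6), 34 in Rad21 (18) and 12 in Ctcf (2). With a pseudocount of 1 they were 11 in XRRa_KO, 3 in XRRb, 11 in Rad21 and 1 in Ctcf, and 1 in Ctcf when centred. On Xa, a filter of 5 FPKM left 2 in XistpA (12), 8 in XRR_KO (13), 0 in XRRa_KO (2), 2 in XRRb (8), 3 in XRRc (6), 34 in Rad21 (53) and 6 in Ctcf (17). Without a filter, 6 changed on Xa in XRRa_KO and 12 in XRRc. Changes of the order of 1 FPKM on Xi, such as that of Trap1a, are limited by the unknown depth.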

Other observations

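Promoters of genes that rose on Xi held fewer CG dinucleotides than those of other tested genes, a pattern noticed in these data and not tested. Counted over 300 bases and taking the promoter richest in CG, the median was 12 for 33 risen genes against 19 for 205 others in XistpA, 12 for 40 against 19 for 198 in XRR_KO, and 11 for 16 against 19 for 222 in XRRa_KO. Mum1l1, with 17, lay between these medians, and Trap1a, with 8, lay below both and is one of the genes that rose in XRR_KO. Ranges overlapped widely, with 4 to 32 among the genes that rose in XRR_KO and 0 to 57 among the others. Promoters were found for 33 of 33 risen genes and 205 of 237 others in XistpA. In XRR_KO these were 40 of 43 and 198 of 227, and in XRRa_KO 16 of 16 and 222 of 254. Risen and other genes were not matched for expression level or for Xi expression in WT. Among the others listed at 0 on Xi in XistpA, XRR_KO or XRRa_KO, the median was 20 in each.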
